A study of Rattus norvegicus with 8 samples.

Results

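The genes described here carry a cell from rest into DNA replication or hold it back: the licensing factors Cdc6 and Cdt1, the cyclins Ccnd1, Ccnd2, Ccnd3 and Ccne1, the kinase Cdk4, the inhibitors Cdkn1a and Cdkn1b, and the replication clamp Pcna. They were chosen by name, and the probes of Cdc6 (XM_340896) and Cdt1 (AI112987) were chosen by accession from the study's own list of genes, which rests on surviving and dying neurons of these same arrays. The rule found 16 probes of 10 genes, among 12487 distinct gene names on the array. Probes matched RefSeq by accession for 12 of the 16, and 6 genes had 2 probes each.

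A cell licenses its origins of replication when Cdc6 and Cdt1, seated on the origin recognition complex, load the Mcm helicase. D-type cyclins with Cdk4 and then cyclin E release E2F from the retinoblastoma protein, while Cdkn1a (p21) and Cdkn1b (p27) hold the cyclin-dependent kinases in check and Pcna tethers the polymerases to DNA. Mature pyramidal neurons have left the cell cycle and do not divide, and the return of cell cycle proteins in injured neurons is a known companion of their death in several models of brain injury.

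CA3 pyramidal neurons were collected by laser capture microdissection 24 h after moderate fluid percussion, a model of traumatic brain injury, in male Sprague-Dawley rats. Neurons stained by Fluoro-Jade, a dye taken up by degenerating neurons, made up the dying pools, and unstained neurons next to them the surviving pools, each of about 600 neurons drawn from several rats. The other groups were sham-injured rats and naïve rats, which had no treatment, with the number of neurons per pool not given in the sources used here. Each of the 4 groups was measured on 2 single-colour arrays, 8 in all. The paper calls the replicates of dying and surviving neurons biological, each pooled from several rats, and says that they were hybridised in duplicate. The labels do not say how far the 2 arrays of a group differ in animals. The p-values thus measure only the spread between arrays, which may be partly technical.

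The arrays were not alike in brightness. The median signal of the 41012 probes was 27.2, 22.7 (naïve), 16.5, 16.4 (sham), 52.2, 48.2 (surviving) and 19.2, 52.6 (dying). Probes well above background made up 54.7% and 54.6% (naïve), 51.0% and 49.2% (sham), 71.6% and 66.0% (surviving), and 58.7% and 68.3% (dying). The dying arrays stood furthest apart from each other: over 15250 probes measured on all arrays their correlation was 0.892, against 0.966 to 0.985 within the other groups, and their median absolute difference was 0.776 on the log2 scale, against 0.618 for naïve, 0.323 for sham and 0.329 for surviving. The naïve and sham arrays shared a slide, a scan and a protocol name recorded with the extracted signal. The surviving and dying arrays shared another of each. A difference between injured and control pools therefore cannot be told apart from a difference between slides, scans or protocols. Levels below are the log2 of the signal over the median of its array, so that 0 is the level of the median probe, and the 2 values of a group are those of its replicates 1 and 2.

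The labelled cell type was checked against marker genes. Of 10 neuronal markers 8 had a probe, and all 8 were well above background on every naïve, sham and surviving array and on dying replicate 2, and 7 were on dying replicate 1. Their summed signal, in multiples of the array median, was 1650, 2190 (naïve), 3200, 2340 (sham), 1240, 725 (surviving) and 274, 453 (dying), with Snap25 the brightest. Markers of other cells were present in every pool. Those of microglia and macrophages summed to 127, 253 (naïve), 264, 242 (sham), 307, 339 (surviving) and 1950, 1060 (dying) (9 of 10 genes). C1qa was the brightest by mean log2 level over all arrays, and C1qb on both dying arrays. The dying pools thus carried the lowest neuronal and the highest microglial sums. The lists disagreed within themselves: C1qa, C1qb, Tyrobp and Cd68 carried the higher microglial sum, while Aif1 (35.4, 24.8 in dying against 32.0, 33.2 in sham) and Csf1r (2.26, 3.63 against 4.95, 2.65) overlapped sham, and Map2 was not lower in dying pools (4.77, 3.41 against 2.91, 2.85). Snap25 and Tubb3 carried the neuronal sum. On dying replicate 2 Syt1 (18.1), Slc17a7 (4.96) and Camk2a (14.6) lay within the range of the control arrays and Grik4 (31.4) above both sham arrays. On dying replicate 1 these genes (4.24, 0.891, 3.38 and 0.478) lay below every control array, with Grik4 not well above background. Nefl (2.01, 64.4 in dying) lay below the control arrays (67.8 to 143) on both. How far either list moved the genes below was not tested.

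Cdc6, the loader that recruits Cdt1 and the helicase, was bright on a single array. Its probe read -2.66, -2.66 (naïve), -2.21, -1.98 (sham), -4.24, -2.82 (surviving) and 3.59, -3.85 (dying). Only the 3.59 of dying replicate 1 was well above background. No group was measured on all its arrays, so no fold is given and the other 7 values are not ranked. In pooled cells, a few cells with much RNA and many cells with little cannot be told apart, and neither can fewer cells of a type and less RNA per cell.

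Cdt1, which brings the helicase to the origin together with Cdc6, was measured by an expressed sequence tag. It read -3.01, -3.03 (naïve), -2.55, -2.36 (sham), -3.06, -2.64 (surviving) and 0.91, -0.48 (dying). Both dying arrays, and no other array, were well above background. A probe not well above background on every array of a group gives only a bound there: the mean of the brighter group is set against the lowest signal called well above background on each array of the dimmer group, or the probe's own signal where that is higher. The p printed beside a bound uses readings at background in the dimmer group, and such a probe was tested only because the other group is bright. On this bound Cdt1 was at least 4.53-fold brighter in dying than in surviving pools, and at least 1.36-fold brighter than in sham. Both lean on dying replicate 1: without it the bound over surviving pools was 2.80-fold and there was none over sham, where dying replicate 2 lay under the lowest signals called well above background (-0.3 and -0.15). With normexp the Cdt1 differences (surviving minus dying, and dying minus sham) were -0.63 and 0.26. These probes were chosen on the dying and surviving arrays, so their levels are a description and no test is given.

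The array also carries Cdt1 under its older name, Ris2, which RefSeq lists as a synonym. This probe, for the predicted mRNA XM_226545, lies outside the rule and was looked up after the levels of the tag had been seen. It read -2.74, -2.78 (naïve), -2.32, -2.12 (sham), 1.08, 1.11 (surviving) and -3.1, 1.14 (dying). It was well above background on both surviving arrays and on dying replicate 2, and not on dying replicate 1, where the tag was brightest. The surviving pools were at least 2.50-fold brighter than sham on this probe (adjusted p = 0.0772). Surviving and dying arrays overlapped on it (adjusted p = 0.329): dying replicate 2 lay above both surviving arrays, and only dying replicate 1 lay below them. Which of the tag and the mRNA probe follows the Cdt1 transcript was not tested. Another Ris2 tag (TC522458) was well above background on naïve replicate 2, surviving replicate 2 and dying replicate 2 alone, at -0.55, -1.39 and -0.61.

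**Figure D1:**
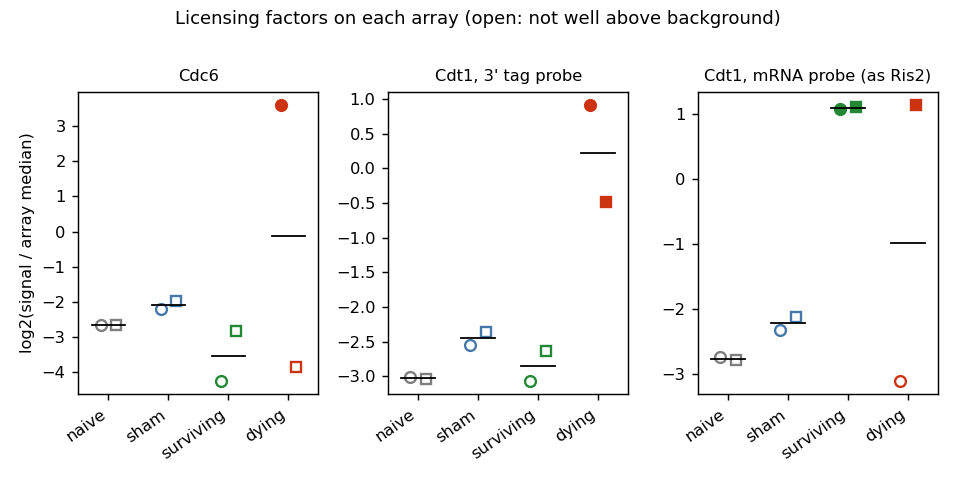
Level of the Cdc6 probe, the Cdt1 tag and the Cdt1 mRNA probe named Ris2 on each array (vertical axis, log2 of signal over array median; circles replicate 1, squares replicate 2, open symbols not well above background, bars group means). Cdc6 is bright on dying replicate 1 alone at 3.59, the tag on both dying arrays, and the mRNA probe on both surviving arrays and dying replicate 2.

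The probes whose levels over the 8 arrays most resembled the Cdt1 tag, among 11228 named probes compared, were those of B4galt1 (Pearson r = 0.978), Rps6ka1 (0.973) and Tcirg1 (0.972). Tcirg1 read 4.46, 4.88 (naïve), 5.36, 5.30 (sham), 5.59, 5.06 (surviving) and 8.92, 7.76 (dying). For Cdc6 they were Dchs1 (r = 0.950), Ngb (0.940) and Tle2 (0.938), each at its highest on dying replicate 1. With 8 arrays, of which 1 or 2 were bright, these coefficients mostly record that the bright arrays were shared.

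The members other than Cdc6 and Cdt1 were compared between groups with limma, with p-values adjusted over all probes tested. Between surviving and dying pools none of the 8 genes passed an adjusted p of 0.05 by its brightest probe, as none of the 27391 probes tested did (0 called, 0.0%). At an unadjusted p under 0.05 the counts were 2 of 8 genes and 5896 probes. Both surviving arrays lay above both dying arrays for 3 of the 8 genes (30.0% of all probes tested) and below them for 2 (21.7%), and the median difference was 0.00, beside 0.14 for all probes. Without dying replicate 2, 5994 probes passed, with the lone dying array then assumed to vary like the arrays of the other groups.

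Against sham, 2 of the 8 genes passed in surviving pools, both lower, where 5074 of 26905 probes (18.9%) did. In dying pools 3 of the 8 passed, 1 higher and 2 lower, where 11289 of 25623 probes (44.1%) did, so that the share among the members was no greater than among all probes. Surviving arrays lay wholly above sham for 1 gene (28.0% of all probes) and wholly below for 5 (48.8%). Dying arrays lay wholly above sham for 2 genes (30.8%) and wholly below for 4 (45.3%). The median differences of the 8 genes were -0.54 and -0.95, beside -0.43 and -0.46 for all probes. Both comparisons use the same sham arrays, so their values are given side by side only.

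The sign of small differences from sham depends on how the arrays are scaled. Dividing by the 75th percentile in place of the median moved the median of all probes from -0.43 to 0.36 for surviving and from -0.46 to 0.26 for dying pools. The probes called turned with it, from 1834 higher and 3240 lower to 4134 higher and 1496 lower in surviving, and from 3863 higher and 7426 lower to 7050 higher and 4763 lower in dying pools. Among the 8 genes the split became 0 higher and 0 lower in surviving, and 2 higher and 1 lower in dying pools. With a normexp background correction 0 probes passed in either comparison by limma (2494 and 2347 at an unadjusted p under 0.05).

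Sham and naïve pools were compared as controls. No member passed, as none of 20676 probes did (0.0%; 997 at an unadjusted p under 0.05, and 0 of the 8 genes). Both sham arrays lay above both naïve arrays for 3 of the 8 genes (38.0% of all probes) and below for 0 (4.95%). The median difference of the 8 genes was 0.42, beside 0.37 for all probes.

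Ccnd1, the D-type cyclin that growth signals induce to start the cycle, was the member that rose in dying pools. Its brighter probe (NM_171992) read 2.13, 1.75 (naïve), 2.7, 2.86 (sham), 3.47, 3.09 (surviving) and 5.04, 5.68 (dying). Both dying arrays lay above all 6 others, and both surviving arrays above the 4 control arrays. The dying pools exceeded sham by 2.57 (SE 0.46, adjusted p = 0.00474), with both dying arrays higher than both sham arrays. The surviving pools differed from sham by 0.50 (SE 0.46, adjusted p = 0.452) and from dying pools by -2.08 (SE 0.46, adjusted p = 0.113).

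The dimmer Ccnd1 probe ran the same way between these groups. It read -0.32, 1.14 (naïve), -1.81, 0.82 (sham), 2.65, 2.55 (surviving) and 3.46, 5.59 (dying). It was not well above background on sham replicate 1, so that only bounds can be given: at least 19.3-fold over sham in dying (adjusted p = 0.00682) and at least 5.07-fold in surviving pools (adjusted p = 0.0671). With 1 array left out the bound in dying pools ran from 9.22-fold to 40.4-fold. Over the 8 arrays the Ccnd1 probes correlated at 0.82. The rise of the brighter probe passed in 11 of 12 other settings, all but normexp (adjusted p = 0.584). Without sham replicate 1 the rise of the brighter probe in dying pools was 2.49 with an adjusted p of 0.0508, and that of the dimmer 3.71 with 0.0553. Without dying replicate 2 the brighter probe differed between surviving and dying pools by -1.76 with an adjusted p of 0.0414, where a lone dying array borrows its spread from the other groups.

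Ccnd2, the D-type cyclin of neural progenitors, showed how far apart the dying arrays were. It read 3.98, 6.01 (naïve), 4.78, 5.70 (sham), 5.52, 5.61 (surviving) and 2.0, 5.52 (dying). Dying replicate 1 was the lowest of all arrays, while dying replicate 2 lay within the range of the controls. The difference between surviving and dying pools, 1.81 (SE 1.12, adjusted p = 0.383), became 0.05 without dying replicate 1 and 3.57 (adjusted p = 0.0343) without dying replicate 2. Against sham the dying pools differed by -1.48 (adjusted p = 0.293), which became 0.28 without dying replicate 1 and -3.24 (adjusted p = 0.0204) without dying replicate 2. In these fits the dying group is 1 array and its spread is borrowed from the other groups, so the p-values do not measure the spread of dying pools.

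Ccnd3, the remaining D-type cyclin, read 4.43, 5.38 (naïve), 5.29, 5.57 (sham), 4.68, 4.44 (surviving) and 4.78, 4.14 (dying). All 4 injured arrays lay below both sham arrays and naïve replicate 1 lay among them. The differences from sham, -0.87 in surviving and -0.97 in dying pools, did not pass (adjusted p = 0.244 and 0.144) and turned to 0.14 and 0.25 with quantile normalization.

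Ccne1, the cyclin that acts at the start of DNA synthesis, passed in no comparison by its brighter probe. It read 5.85, 6.39 (naïve), 6.83, 6.38 (sham), 6.17, 6.12 (surviving) and 6.62, 5.89 (dying), and the differences from sham (-0.46 and -0.35) were within their SE of 0.47 and turned positive under the 75th percentile (0.32 and 0.37). Both surviving arrays lay below both sham arrays, and dying arrays overlapped sham. The dimmer probe was well above background on both dying arrays (0.36 and 0.04) and on naïve replicate 1 (0.36) alone. Dying pools were at least 4.48-fold brighter than surviving pools on it (adjusted p = 0.136) and at least 1.34-fold brighter than sham (adjusted p = 0.101). The Ccne1 probes did not run together over the 8 arrays (r = -0.08).

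Cdk4, the kinase partner of the D-type cyclins, was bright on every array. Its brighter probe read 6.26, 6.45 (naïve), 6.72, 6.71 (sham), 6.39, 5.83 (surviving) and 5.74, 5.82 (dying). Both sham arrays were the highest of the 8, and both dying arrays the lowest. The dying pools differed from sham by -0.94 (SE 0.43, adjusted p = 0.106), which turned to 0.30 with quantile normalization, and the surviving pools by -0.61 (adjusted p = 0.329), which turned to 0.17 under the 75th percentile. The other Cdk4 probe, which correlated with it at 0.91, read 5.95, 6.0 (sham), 5.78, 4.6 (surviving) and 5.02, 4.22 (dying) (dying minus sham -1.36, adjusted p = 0.0716).

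Cdkn1a, the p53 target that stops the cycle after DNA damage, was highest in dying pools. The mean of its 10 spots read 3.09, 2.65 (naïve), 3.74, 3.59 (sham), 3.60, 2.95 (surviving) and 5.01, 4.82 (dying). Both dying arrays lay above the other 6, which spanned 2.65 to 3.74. The dying pools differed from sham by 1.25 (SE 0.45), just short of the threshold (adjusted p = 0.0538). The adjusted p was 0.0123 under the 75th percentile, 0.00948 with quantile normalization, 0.0104 in the authors' table and 0.0403 where all 4 arrays had to be well above background, and reached 0.7 with normexp. The surviving pools differed from dying pools by -1.64 (SE 0.46, adjusted p = 0.126) and from sham by -0.39 (adjusted p = 0.555), which turned to 0.39 under the 75th percentile. A further Cdkn1a probe was well above background on no array.

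Cdkn1b, the inhibitor that keeps resting cells and mature neurons out of the cycle, ran the other way. Its 10 spots averaged 4.64, 5.24 (naïve), 5.30, 4.90 (sham), 3.06, 3.04 (surviving) and 1.43, 2.49 (dying). The 3 levels did not overlap: every control array was above both surviving arrays, and these were above both dying arrays. Cdkn1b fell by 3.14 on the log2 scale in dying pools (SE 0.51, adjusted p = 0.00363) and fell by 2.05 in surviving pools (SE 0.51, adjusted p = 0.033) against sham, lower on both arrays each time. The difference between surviving and dying pools, 1.09 (SE 0.52), did not pass (adjusted p = 0.268).

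The fall in dying pools passed in 11 of 12 other settings, all but normexp (adjusted p = 0.519), and without each of the 8 arrays in turn, while that in surviving pools passed in 7 of 12 settings. It was -1.27 under the 75th percentile (adjusted p = 0.0991), and its adjusted p was 0.208 without sham replicate 1, 0.124 without sham replicate 2, 0.155 without surviving replicate 1 and 0.196 without surviving replicate 2. A further Cdkn1b probe was well above background on no array.

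**Figure D2:**
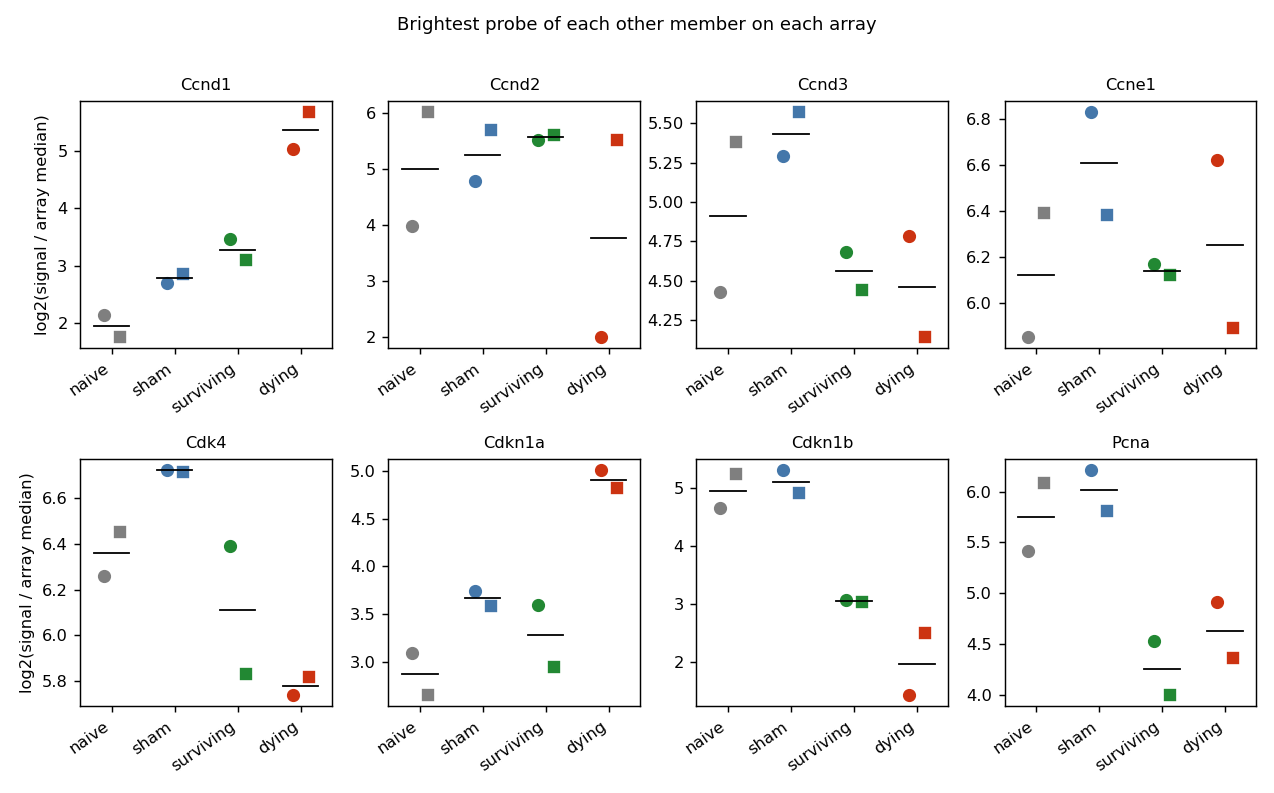
Brightest probe of each member other than Cdc6 and Cdt1 on each array (vertical axes, log2 of signal over array median, each panel with its own range; circles replicate 1, squares replicate 2, bars group means). Ccnd1 and Cdkn1a are highest on both dying arrays, Cdkn1b steps down from sham to surviving to dying pools, and Ccnd2 is low at 2.0 on dying replicate 1 alone.

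Pcna, the sliding clamp of DNA replication and repair, was lower in all injured pools. Its brighter probe (NM_022381) read 5.42, 6.08 (naïve), 6.21, 5.81 (sham), 4.53, 4.0 (surviving) and 4.91, 4.36 (dying). All 4 injured arrays lay below all 4 control arrays. Pcna fell by 1.74 in surviving (SE 0.49, adjusted p = 0.0437) and fell by 1.37 in dying pools (SE 0.49, adjusted p = 0.0495) against sham, both close to the threshold. Surviving and dying pools differed by -0.37 (SE 0.49, adjusted p = 0.699), a difference that turned to 0.60 with the mean of both probes.

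The calls of this Pcna probe were the least stable of the members that passed. In dying pools the fall passed in 3 of 12 other settings and without 2 of 8 arrays in turn, and was -0.15 with quantile normalization (adjusted p = 0.73). In surviving pools it passed in 4 of 12 settings and without 4 of 8 arrays, and was -0.96 under the 75th percentile (adjusted p = 0.103). Its adjusted p in dying pools was 0.239 and 0.125 without sham replicates 1 and 2, 0.0798 without either surviving array, and 0.0622 and 0.122 without dying replicates 1 and 2. In surviving pools it was 0.252 and 0.144 without sham replicates 1 and 2, and 0.143 and 0.278 without surviving replicates 1 and 2.

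The dimmer Pcna probe read 1.41, 2.25 (naïve), 2.12, 1.70 (sham), 0.94, -1.15 (surviving) and -2.80, -0.56 (dying). It was not well above background on dying replicate 1. Sham was at least 7.32-fold brighter than dying pools on it (adjusted p = 0.0147), and the surviving pools differed from sham by -2.02 (SE 0.90, adjusted p = 0.145). Without dying replicate 1 the difference was -2.48 (5.56-fold, measured on the 3 arrays left), against -3.59 with all arrays. The call in dying pools was lost without sham replicate 1 (0.0901), sham replicate 2 (0.0576) or dying replicate 1 (0.084). The array carries 2 further probes for near-copies of Pcna, each well above background on 1 array, which lie outside the rule and were looked at after the Pcna levels had been seen.

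**Figure D3:**
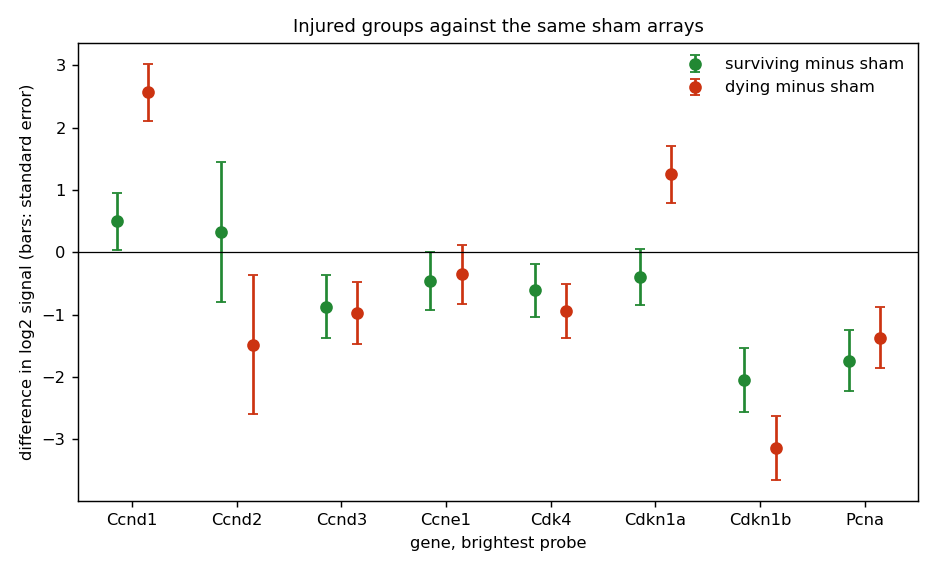
Difference of surviving and of dying pools from the same 2 sham arrays for the brightest probe of each member (vertical axis, log2 signal; bars, standard error of the limma fit). Ccnd1 is higher by 2.57 in dying pools, and Cdkn1b is lower in dying (-3.14) and surviving (-2.05) pools, with the sign of small differences open to the scaling.

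Promoters were read from RefSeq (GRCr8) for 7 of the 10 members, 300 bases each, from 250 before the start of transcription to 50 after it. They were searched on both strands for CCAAT, bound by NF-Y, for the E-box CACGTG, for the E2F forms TTTGGCGC, TTTCGCGC, TTTCCCGC and TTTGCCGC, and for the full p53 site with at most 1 mismatch. The stretches shown were picked because Cdkn1b and Pcna fell in injured pools and Cdkn1a was highest in dying ones. They are chr4:169491316-169491480 on the plus strand for Cdkn1b, chr3:139955944-139956028 on the minus strand for Pcna and chr20:7150691-7150790 on the plus strand for Cdkn1a, all upstream of the start. Capitals mark CCAAT or its reverse complement in Cdkn1b and Pcna, and the p53 site in Cdkn1a.
Cdkn1b: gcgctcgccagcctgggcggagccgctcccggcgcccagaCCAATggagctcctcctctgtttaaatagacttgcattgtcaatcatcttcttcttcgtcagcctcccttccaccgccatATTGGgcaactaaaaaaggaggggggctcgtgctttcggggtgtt
Pcna: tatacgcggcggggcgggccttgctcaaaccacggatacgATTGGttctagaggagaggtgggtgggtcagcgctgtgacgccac
Cdkn1a: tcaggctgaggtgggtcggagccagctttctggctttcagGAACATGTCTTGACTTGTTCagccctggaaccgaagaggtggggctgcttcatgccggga

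Such matches are a description of the letters and name no site in use. CCAAT occurred in 37.5% of 33469 promoters, and besides Cdkn1b (2 matches) and Pcna (1 match) the Ccnd3 window held 1. The p53 site occurred in 0.0717% of promoters, and in Cdkn1a it lay 201 to 182 bases before the start. Any E2F form occurred in 2.14%, and the Cdt1 window held 2, at 8 to 15 and 33 to 40 bases after the start. CACGTG occurred in 6.42%, and the Cdk4 window held 3.

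The other genes of origin licensing and helicase loading, on which Cdc6 and Cdt1 act, were listed together (21 genes, 16 with a probe). In dying pools 6 of 10 tested passed against sham (44.1% of all probes did), 1 higher and 5 lower, with a median of -1.29 beside -0.46 for all probes. Over the 5 genes measured on all 4 arrays 3 passed, all lower, with a median of -1.82 beside -0.90 for all such probes. Fitted alone, 7156 of 16180 such probes passed (44.2%), 1120 higher and 6036 lower. Orc4, a subunit of the origin recognition complex, read 5.02, 4.74 (sham), 3.06, 3.09 (surviving) and 2.56, 2.87 (dying), and fell in both (by 1.80, adjusted p = 0.0261, and by 2.16, adjusted p = 0.00617). Orc3 and Orc6 were at least 8.47-fold and 11.2-fold brighter in sham than in dying pools (adjusted p = 0.0301 and 0.0121), each not well above background on dying replicate 1. These bounds lean on that array: without it the differences were -1.63 and -2.68, against -3.63 and -4.53 with it, and the Orc3 call held in 4 of 10 other settings.

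Geminin (Gmnn), the protein that binds and blocks Cdt1, read 1.32, 0.74 (sham), -0.70, -1.20 (surviving) and -0.88, -0.99 (dying). It fell in both (-1.98, adjusted p = 0.0245, and -1.96, adjusted p = 0.011). Gins4, of the complex that activates the helicase, fell by 1.82 in dying pools (adjusted p = 0.0141). The calls on the higher side were of dim helicase subunits. Mcm5 (adjusted p = 0.0332 and 0.012 in surviving and dying pools) was below background in sham, and its injured means lay under the lowest signals called well above background there (the sham limit), so that no rise is shown. Mcm4 was at least 1.18-fold brighter in surviving pools (adjusted p = 0.0256), a p that rests on background readings in sham. In surviving pools 4 of 12 passed (18.9% of all probes), 2 higher and 2 lower, with a median of -0.70 beside -0.43. Over the 7 genes measured on all 4 arrays 2 passed, both lower, with a median of -1.31 beside -0.82 for all such probes. Fitted alone, 17.1% of such probes passed, mostly lower. Under the 75th percentile the splits became 3 higher and 0 lower in surviving, and 2 higher and 4 lower in dying pools.

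Among genes of the replication fork and nucleotide supply, the partners of Pcna (24 genes, 23 with a probe), 8 of 14 tested passed in dying pools (44.1% of all probes), 3 higher and 5 lower, with a median of -0.04 beside -0.46. Over the 11 genes measured on all 4 arrays 5 passed, 1 higher and 4 lower, with a median of -0.19 beside -0.90. Of all such probes 44.2% passed, mostly lower. Rrm2, the inducible subunit of ribonucleotide reductase, read -0.83, -1.07 (sham), 0.97, 1.81 (surviving) and 2.16, 1.49 (dying). It was at least 3.07-fold brighter than sham in surviving (adjusted p = 0.0202) and at least 4.13-fold in dying pools (adjusted p = 0.00467). Neither sham array was well above background, so these p-values rest on background readings and only the bounds describe the difference. Pold1, the catalytic subunit of polymerase delta, rose in dying pools by 1.79 (adjusted p = 0.0259). Pola1 passed (adjusted p = 0.024) but its dying mean lay under the sham limit, so that no rise is shown.

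Of the clamp loader, which seats Pcna on DNA, 3 subunits passed in dying pools, all lower. Rfc4 read 3.52, 3.29 (sham), 1.03, 1.01 (surviving) and -1.73, -0.61 (dying); it fell by 2.38 in surviving pools (adjusted p = 0.0205), and sham was at least 20.9-fold brighter than dying pools (adjusted p = 0.00119). Rfc2 and Rfc5 fell by 1.78 and 1.84 (adjusted p = 0.0328 and 0.0409), while Rfc3 differed by 0.78 (adjusted p = 0.249), with both dying arrays above both sham arrays. The single-strand binding subunits Rpa2 and Rpa3 fell by 1.61 and 2.95 (adjusted p = 0.0425 and 0.0117). With each array left out in turn, the calls of Rfc2, Rfc5 and Rpa2 held 3, 3 and 2 of 8 times, and the Rpa3 difference ran from -4.06 to -1.85. In surviving pools 2 of 14 passed (18.9% of all probes), 1 higher and 1 lower, with a median of -0.26. Under the 75th percentile the splits became 1 higher and 0 lower, and 4 higher and 2 lower.

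Of the other cyclins and cyclin-dependent kinases (15 genes, all with a probe), 5 of 11 tested passed in dying pools, about the 44.1% of all probes, 1 higher and 4 lower, with a median of -0.94 beside -0.46. Over the 8 genes measured on all 4 arrays 4 passed, all lower, with a median of -1.54 beside -0.90. Of all such probes 44.2% passed, mostly lower. The brighter gene was Cdk1, the kinase of entry into mitosis, which was below background on all 4 control arrays. It read -2.19, -1.94 (sham), 2.32, 2.71 (surviving) and 3.1, 3.02 (dying), at least 6.68-fold brighter than sham in surviving (adjusted p = 0.00136) and at least 9.77-fold in dying pools (adjusted p = 0.000483). These p-values rest on background readings in sham, and Cdk1 was tested only because the injured arrays are bright. Cdk7 and its cyclin Ccnh, which activate other cyclin-dependent kinases, fell in dying pools (-2.03 and -3.24, adjusted p = 0.0227 and 0.0041), as did Cdk5, a kinase of neurons outside the cycle (-1.82, 0.0267), and the mitotic brake Wee1 (-2.04, 0.00812). The calls of Cdk7 and Cdk5 held in 7 and 6 of 11 other settings and without 5 and 4 of 8 arrays. In surviving pools 2 of 11 passed (18.9% of all probes), Cdk1 and Ccnh (-2.04, adjusted p = 0.0406), with a median of -0.65. Under the 75th percentile the split in dying pools was 2 higher and 2 lower, and in surviving pools 1 higher and 0 lower.

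Among the other inhibitors, the retinoblastoma family and E2F (22 genes, 17 with a probe), 8 of 13 passed in dying pools (44.1% of all probes), 3 higher and 5 lower, with a median of -0.35 beside -0.46. Over the 10 genes measured on all 4 arrays 5 passed, all lower, with a median of -1.11 beside -0.90. Among all such probes the share was 44.2%, mostly lower. Cdkn2a and Cdkn2b, inhibitors of Cdk4, and E2f8, a repressor of E2F targets, which were not measured on every sham array, were at least 2.65-fold, 1.44-fold and 3.0-fold brighter (adjusted p = 0.0275, 0.0377 and 0.0398). With each array left out in turn these calls held 5, 4 and 1 of 8 times, and the E2f8 difference ran from 1.10 to 4.26. Rb1, the retinoblastoma protein itself, read 4.19, 3.61 (sham), 1.99, 1.49 (surviving) and -0.63, 1.54 (dying), and fell by 3.44 in dying pools (adjusted p = 0.00882). Its relative Rbl2, the E2F partner Tfdp1, the Cdk4 inhibitor Cdkn2d and the p53 ligase Mdm2 fell by 1.45, 2.65, 1.91 and 2.50 (adjusted p = 0.0389, 0.0107, 0.0141 and 0.00723). With 1 array left out the call of Rbl2 held 3 of 8 times. The Rb1 difference then ran from -4.52 to -2.36 and that of Tfdp1 from -3.46 to -1.83. In surviving pools 0 of 13 passed by limma, where 18.9% of all probes did, and the median was -0.77 beside -0.43. At an unadjusted p under 0.05 the counts were 5 of 13 genes and 9929 of 26905 probes. Under the 75th percentile the splits became 1 higher and 0 lower in surviving, and 3 higher and 4 lower in dying pools.

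Of the mitotic genes (20 genes, 18 with a probe), 5 of 13 passed in dying pools, a smaller share than the 44.1% of all probes, 4 higher and 1 lower, and the median was 1.09 beside -0.46. All 4 on the higher side were genes not measured on every sham array. Over the 5 genes measured on all 4 arrays only Bub3 passed, lower (44.2% of such probes passed), and the median was 0.21 beside -0.90. Bub1b, of the spindle checkpoint, read -2.46, 1.15 (sham), 0.50, -0.34 (surviving) and 4.07, 2.92 (dying). It was at least 8.43-fold brighter in dying pools than in sham. The study's own list, which rests on surviving and dying neurons of these arrays, names Bub1b and Incenp. The level of Bub1b is therefore a description, and the counts and medians of the mitotic genes include both. Ube2c was at least 8.10-fold brighter in dying pools than in sham (adjusted p = 0.00716) and Ttk at least 4.24-fold (0.0452). Ttk read 1.39, 2.53 (naïve), -0.61, 1.35 (sham), -0.44, 0.73 (surviving) and 2.93, 2.29 (dying), so that dying and naïve arrays overlapped. Cenpf passed (0.0227) with a dying mean under the sham limit, so that no rise is shown, and Bub3 fell by 1.68 (0.0295). The calls of Ttk and Bub3 held without 3 of 8 arrays each, and without sham replicate 2 or 1 the Bub1b difference ran from 5.96 to 2.35. In surviving pools 0 of 13 passed by limma, where 18.9% of all probes did. At an unadjusted p under 0.05 the counts were 1 of 13 genes and 9929 of 26905 probes. The median was 0.54 beside -0.43, which turned to -0.15 beside -0.82 over the 8 genes measured on all 4 arrays. Under the 75th percentile the splits became 1 higher and 0 lower in surviving, and 6 higher and 0 lower in dying pools.

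Between surviving and dying pools, and between sham and naïve pools, 0 genes of these 5 lists passed by limma. The mitotic counts and medians below include Bub1b and Incenp, which the study had listed from its surviving and dying pools. At an unadjusted p under 0.05 the counts between surviving and dying pools were 2 of 12 for licensing, 6 of 15 for the fork, 0 of 11 for the other cyclins and kinases, 1 of 13 for the inhibitors and 4 of 13 for mitosis, beside 5896 of 27391 probes. The median differences were 0.43, -0.14, 0.07, 0.41 and -0.90, beside 0.14 for all probes, and over genes measured on all 4 arrays -0.07, -0.19, 0.07, 0.41 and -1.28, beside 0.02. Between sham and naïve pools the counts were 0 of 7, 0 of 12, 1 of 8, 1 of 12 and 0 of 9, beside 997 of 20676 probes, and the medians 0.48, 0.48, 0.46, 0.60 and 0.52, beside 0.37. Calls against sham in these lists were kept 512 times and lost 230 times over the other settings and left-out arrays, and none turned its sign. A setting in which a probe was not tested is not counted as a loss. Left-out arrays of groups outside a comparison are counted, although they enter it only through the spread. Of the calls in surviving pools only that of Cdk1, which rests on background readings in sham, held without each array in turn. Each of the others was lost without 4 of 8 arrays.

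**Figure D4:**
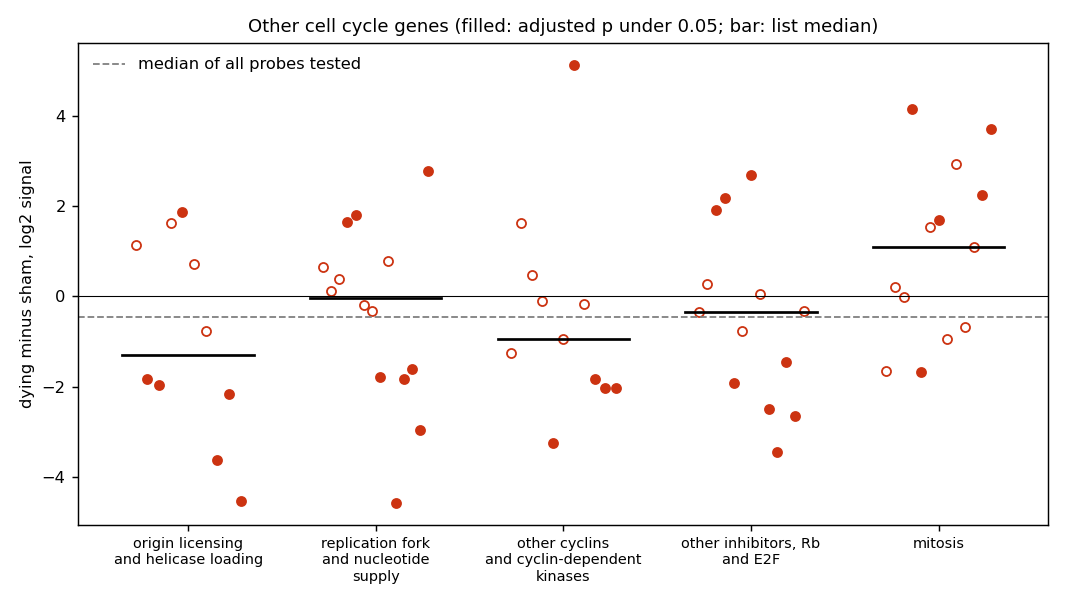
Difference of dying pools from sham for each tested gene of the 5 lists of other cell cycle genes (vertical axis, log2 signal; filled points passed an adjusted p of 0.05, bars are list medians, the broken line is the median of all probes). Points include genes below background in 1 group, and over genes measured on all 4 arrays the mitotic median is 0.21 and the licensing median -1.82, in place of 1.09 and -1.29.

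Several of the genes that were brightest in dying pools are genes of dividing cells, so the levels of markers of other cells are given beside them. Markers of astrocytes summed to 718, 799 (naïve), 1240, 804 (sham), 432, 451 (surviving) and 1020, 476 (dying) (7 genes). Slc1a3 carried this sum (942 on dying replicate 1) while others of the list ran both ways. Gja1 read 84.7 to 148 on control arrays and 10.8, 13.1 (surviving) and 34.5, 9.79 (dying), Gfap 2.7 to 4.28 on control arrays and 11.9, 6.64 (surviving) and 2.15, 12.3 (dying), and Aldh1l1 36.7, 32.1 (sham) and 37.3, 29.7 (dying). Those of oligodendrocyte precursors summed to 444 and 418, 640 and 476, 289 and 307, and 1110 and 581 in the same order (5 genes). Olig1 carried this sum (846 on dying replicate 1), while Pdgfra ran the other way (27.0, 9.91 in dying against 45.8, 34.9 in sham).

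Endothelial and pericyte markers summed to 45.9, 81.1 (naïve), 78.6, 59.8 (sham), 63.0, 48.9 (surviving) and 283, 102 (dying) (5 of 6 genes, Pdgfrb the brightest, Tek well above background on no array). Markers of infiltrating leukocytes summed to 10.8 and 16.3, 9.63 and 8.65, 31.6 and 27.2, and 38.1 and 53.9 in the same order (6 genes, Lyz making up most), and those of interneurons to 183 and 382, 310 and 241, 126 and 132, and 446 and 112 (5 genes). The interneuron list disagreed within itself: on dying replicate 1 Sst read 362, its highest, and Pvalb, the brightest over all arrays, 57.6, its lowest. So did the endothelial and pericyte list. Vwf (117, 58.4 in dying) lay above the control arrays (10.6 to 25.1). Pdgfrb read 134 on dying replicate 1 and 17.8 on dying replicate 2, the latter below every control array (19.5 to 34.2). Cldn5 (30.9, 25.3 in dying) overlapped the control arrays (14.4 to 31.2). The precursor, microglial, endothelial and interneuron sums were highest on dying replicate 1, the array on which Cdc6 was bright. Markers of mature oligodendrocytes are not used here. The part of any of these cells in the levels of the members was not tested.

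**Figure D5:**
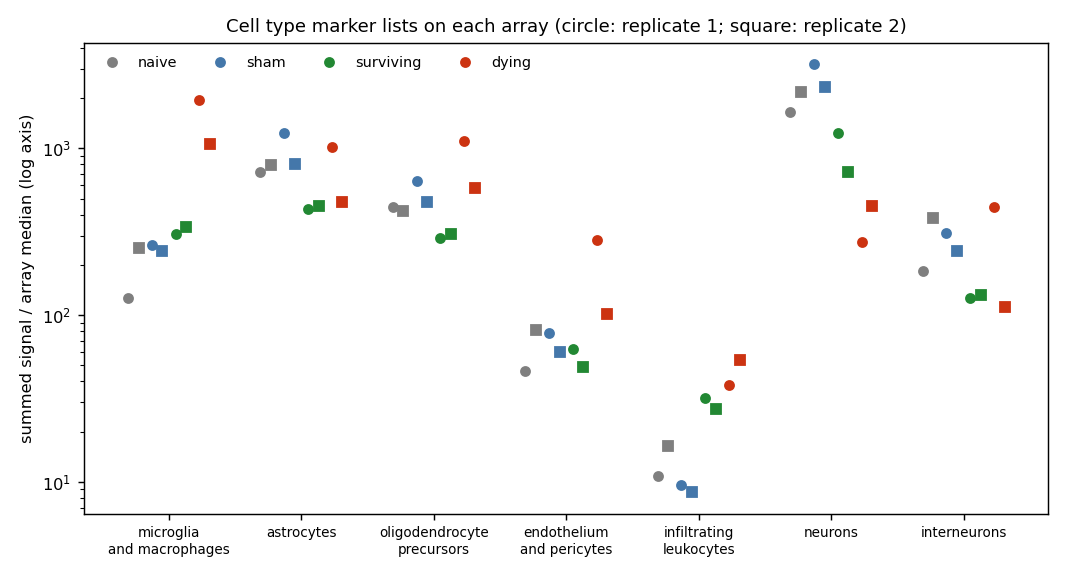
Summed signal of 7 lists of cell type markers on each array (vertical axis, multiples of the array median on a log axis; circles replicate 1, squares replicate 2). Microglial markers are highest at 1950 and 1060 in dying pools, and neuronal markers are lowest in dying pools.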

How the data were processed

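Cells were captured, their RNA amplified and the labelled product hybridised by the authors. The sample labels name 2 amplification kits without saying which pool had which, and the paper's array methods name only MessageAMP II. The deposited intensities hold the background-corrected signal of every spot, made with Agilent Feature Extraction 9.1.3.1. The authors also deposited a table of signal divided by a constant for each array, used here only as an alternative. Here, non-uniform spots (6 to 734 an array) were left out, spots of a probe averaged, and each array divided by its median. Values under 0.01 were set to 0.01 and log2 taken. No spot was saturated. Files were read with pandas 2.3.3 and numpy 2.4.6.

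Groups were compared in limma 3.58.1 (R 4.3.3) with lmFit and eBayes over all 8 arrays, on probes that stood well above background on all arrays of either group, with Benjamini-Hochberg adjustment over all probes tested and a threshold of 0.05. The number of arrays limits the precision. The code was tested on simulated data. A gene with several probes is summarised by its brightest. Named genes are the members, each list gene whose brightest probe passed in a comparison, the brightest marker of each list shown and those above background on no array, and the 3 probes most like Cdc6 and Cdt1. Rfc3 and some further markers are named outside this rule, after the values were seen, because they ran with or against their list. The members and lists were chosen with earlier results of these data known. Alternatives were other scalings (75th percentile, quantile, median over RefSeq probes), normexp with an offset of 50, the authors' table, a floor of 0.1, non-uniform spots kept, other filters, only the arrays compared, the replicate number as a block, the mean over a gene's probes and each array left out.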

Additional observations from a re-analysis of the deposited data

How the results depend on the processing

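Probes past the threshold. Surviving minus dying gave 2 in the authors' series table, and 0 to 5994 with 1 array left out (the highest without dying replicate 2). Surviving minus sham gave 0 with normexp background, 3109 with the filter on all 4 arrays, 12161 with only the 4 arrays compared, and 253 to 8557 with 1 array left out. Dying minus sham gave 0 with normexp background, 7156 with the filter on all 4 arrays, and 3048 to 13426 with 1 array left out. Sham minus naive gave 1 with quantile normalization, 118 with only the 4 arrays compared, and 0 to 22 with 1 array left out.

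With the replicate number as a block (replicate block) the counts were 0, 3488, 10397 and 0 in the same order. After removal of group means, arrays of the same number correlated at -0.194 (surviving and dying) to 0.071 (naïve and dying) between groups. With 2 arrays a group these values cannot show whether pools shared animals. Surviving neurons were taken next to dying ones, so these pools may share rats, and the main fit treats them as unpaired. Slide as a block could not be fitted beside the groups.

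Differences of members that did not pass turned their sign as follows. Surviving minus dying: Ccnd3 -0.11 (quantile normalization) and -0.25 (median over RefSeq probes), Ccne1 1.28 (normexp), Cdk4 -0.02 (median over RefSeq probes), Pcna 1.23 (normexp) and 0.6 (mean over all probes). Surviving minus sham: under the 75th percentile, quantile normalization, normexp and the authors' table Ccne1 was 0.32, 0.49, 0.58 and 0.42, Cdk4 0.17, 0.34, 0.53 and 0.27, and Cdkn1a 0.39, 0.51, 0.52 and 0.49, and under the last 3 Ccnd3 was 0.14, 0.24 and 0.01. Dying minus sham: with quantile normalization Ccnd3 0.25, Ccne1 0.88 and Cdk4 0.3, and Ccne1 also 0.37 (75th percentile), 0.45 (authors' table) and 0.61 (mean over all probes). Sham minus naive: under the 75th percentile, quantile normalization and the authors' table Ccnd2 was -0.05, -0.17 and -0.08, Cdkn1b -0.13, -0.27 and -0.16, and Pcna -0.03, -0.17 and -0.07, with Cdk4 -0.06 (quantile) and Ccnd1 -0.03 and Ccne1 -0.16 (mean over all probes).

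With 1 array left out the ranges across 0 were, for surviving minus dying, Ccnd3 -0.22 to 0.42 and Ccne1 -0.47 to 0.25. For surviving minus sham Ccnd2 ran from -0.13 to 0.79, and for dying minus sham Ccnd2 from -3.24 to 0.28 and Ccne1 from -0.71 to 0.01. For sham minus naive Ccnd2 ran from -0.77 to 1.26, Cdkn1b from -0.14 to 0.46 and Pcna from -0.07 to 0.59. The cause was not tested.

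Each group had 2 arrays, and slide, scan and protocol separate the injured from the control pools. The pools were amplified with kits that the labels do not assign. Markers of other cells differed between pools, and their part in the levels was not tested. Dim probes give bounds only, and Cdc6 rests on 1 array. The Cdt1 probes differ from each other. A p that missed the threshold does not show that levels were equal.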
